A study of Mus musculus with 20 samples.

Results

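Msmb, Defb50 and Apof are 3 of the 23284 genes in a table of RNA levels from 20 libraries of prostate and seminal vesicle grafts. They were chosen from measured levels in these same libraries, Msmb and Defb50 because they were high in grafts of prostate type and low in grafts of seminal vesicle type, and Apof because its level did not follow that of Pbsn, the probasin gene. Their levels across the groups are therefore given as a description, with no test. The only difference of these 3 genes that is tested is mNKX3.1 against PE. The choice did not contrast these groups, but it used the levels of both, which favours a small difference.

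Each graft joined mouse epithelium with rat urogenital sinus mesenchyme, an embryonic tissue that directs epithelium towards prostate. Of the 5 groups of 4 libraries, mNKX3.1+UTY_sh, mNKX3.1 and UTY_sh were seminal vesicle epithelium carrying a construct, a hairpin or both, PE was unmodified prostate epithelium and SVE was unmodified seminal vesicle epithelium. UTY is a Y-linked relative of a histone demethylase, and NKX3.1 is a homeobox factor of the prostate; the labels do not say what the m in mNKX3.1 stands for, and the protocol names both a wild type and a T164A form. The labels call the NKX3.1 genotype of SVE and PE wild type. The vector of the construct was inducible, and the treatment protocol, given for every sample, names doxycycline for 3 months. Grafts were collected 3 months after implantation, from donors 2 months old by the growth protocol. The labels give the mouse background as a hybrid of 129/SvImJ and C57Bl/6J (the growth protocol names C57Bl/6J alone) and the rats as Sprague Dawley. All groups share the rat mesenchyme, whose reads may be counted in mouse genes and cannot be told apart from mouse reads. Nothing in the labels ties the 4 libraries of a group to different animals or grafts, so p-values measure only how far these samples spread, which can be technical. In bulk tissue, fewer cells of a type and less RNA per cell cannot be told apart.

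The prostate and the seminal vesicle are neighbouring male accessory glands whose luminal cells secrete the proteins of seminal fluid under the control of androgens. MSMB, beta-microseminoprotein, is a small cysteine-rich protein that the human prostate secretes in large amounts. Defb50 encodes a beta-defensin, a member of a family of small cationic peptides that act against microbes on epithelial surfaces. APOF, apolipoprotein F, is known mainly from the liver and plasma, where in humans it inhibits the transfer of cholesteryl esters between lipoproteins. Probasin is a secreted lipocalin and a standard marker of the rodent prostate.

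Promoters are printed for 4 of the genes that flank the 3 genes or share their profile across the libraries, picked by hand after the data were seen because the results turn on them, with the Pbsn promoter for comparison. Each runs from 250 bases before to 50 bases after the start of the gene (RefSeq, GRCm38.p6, strand of the gene), and capitals mark AGAACA, a core motif of steroid receptor sites, or its match on the other strand. Ncoa4 (chromosome 14, plus strand) flanks Msmb, Defb10 (chromosome 8, plus strand) lies near Defb50, Wfdc3 (chromosome 2, minus strand) and Pigr (chromosome 1, plus strand) share the profile of Msmb and Defb50, and Pbsn is on chromosome X (minus strand).
Ncoa4: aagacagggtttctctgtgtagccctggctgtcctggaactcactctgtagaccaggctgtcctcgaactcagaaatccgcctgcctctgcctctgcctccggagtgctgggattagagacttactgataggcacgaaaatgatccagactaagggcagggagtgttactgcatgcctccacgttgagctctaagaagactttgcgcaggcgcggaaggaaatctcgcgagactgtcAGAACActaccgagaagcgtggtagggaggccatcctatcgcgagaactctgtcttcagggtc
Defb10: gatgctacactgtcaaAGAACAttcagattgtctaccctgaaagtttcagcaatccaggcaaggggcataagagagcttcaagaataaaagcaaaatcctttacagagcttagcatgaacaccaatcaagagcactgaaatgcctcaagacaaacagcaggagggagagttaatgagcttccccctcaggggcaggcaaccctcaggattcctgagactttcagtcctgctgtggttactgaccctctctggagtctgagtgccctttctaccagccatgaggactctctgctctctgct
Wfdc3: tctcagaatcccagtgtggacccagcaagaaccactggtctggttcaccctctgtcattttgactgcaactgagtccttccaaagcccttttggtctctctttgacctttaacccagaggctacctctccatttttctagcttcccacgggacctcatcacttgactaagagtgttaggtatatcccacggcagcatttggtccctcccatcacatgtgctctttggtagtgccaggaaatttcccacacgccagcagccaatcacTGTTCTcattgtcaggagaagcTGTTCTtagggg
Pigr: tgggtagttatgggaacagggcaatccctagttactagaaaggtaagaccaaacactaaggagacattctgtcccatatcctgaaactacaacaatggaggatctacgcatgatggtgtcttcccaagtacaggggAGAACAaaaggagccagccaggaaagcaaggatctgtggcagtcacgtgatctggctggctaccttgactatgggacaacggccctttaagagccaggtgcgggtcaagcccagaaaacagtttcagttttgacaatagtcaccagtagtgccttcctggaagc
Pbsn: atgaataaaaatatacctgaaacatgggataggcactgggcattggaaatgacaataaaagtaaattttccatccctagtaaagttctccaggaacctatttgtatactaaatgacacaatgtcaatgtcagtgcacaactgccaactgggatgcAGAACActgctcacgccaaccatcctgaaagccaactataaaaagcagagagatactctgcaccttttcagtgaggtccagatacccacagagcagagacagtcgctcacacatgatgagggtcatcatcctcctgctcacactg
The Wfdc3 promoter held AGAACA at 2 places, and each of the other 4 held it once, but the 5 are a chosen subset. Of the 20 flanking genes and nearest profiles named here over 20 libraries, 13 matched the promoter table, as did 0 of the 3 genes themselves. AGAACA was in 6 of the 13, TAAGTA in 2, and TAAGTG and TGTTTAC in 0. Those without AGAACA were Creb3l4, Dph3, Oxnad1, Pgap2, Stat2, Timeless and Timm23. Of 27025 RefSeq promoters of 300 bases, 19.0% held AGAACA on either strand, 7.61% TAAGTA and 9.34% TAAGTG, which are NK homeobox motifs, and 3.55% TGTTTAC, a forkhead motif. These matches describe letters, not binding.

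Depth, from what 1 read was worth in each library, was about 24050000 to 29810000 reads in mNKX3.1+UTY_sh, 15470000 to 21860000 in mNKX3.1, 22520000 to 24950000 in UTY_sh, 14930000 to 20820000 in PE and 20260000 to 25000000 in SVE. The level at which genes read as silent was taken from 1123 olfactory receptor genes, whose 97.5th percentile lay between 3.17 and 3.29 on the deposited log2 scale. The groups matched their labels in type: all 13 genes of a seminal vesicle secretory list fell in PE against SVE, while 13 of 16 tested prostate genes rose and 2 fell. Those with the smallest p were Dnase2b, Svs3a, Svs3b and Sva, of which Svs3a fell by 10.26 and Sva fell by 10.88, and, of the prostate genes, Wfdc3 and 5430419D17Rik, which rose by 9.01 and 8.98, Mme, which rose by 4.27, and Folh1, which fell by 2.20. Msmb was not on that prostate list, and the background was 31.8% of all tested genes called higher and 30.4% called lower. Both lists were chosen with earlier results of these data known, so the match is a description. Some of the prostate genes were well above the silent level in mNKX3.1+UTY_sh, UTY_sh and SVE grafts. Others were low there, such as Wfdc3, at most 4.22, and 5430419D17Rik, at most 5.79. Wfdc3 and 5430419D17Rik passed the filter on low values only through mNKX3.1 and PE libraries, which favoured their calls as higher. Folh1, at most 3.48 in mNKX3.1 and PE, passed it only through the other groups, which favoured its call as lower. Pbsn reached 15.71 in SVE replicate 1, 15.06 in mNKX3.1+UTY_sh replicate 4 and 14.81 in UTY_sh replicate 3, which is 23.3%, 14.9% and 12.5% of the PE mean (antilog scale). These 3 libraries were the highest of a range with no clear break below them. UTY_sh replicate 2 followed at 13.81 and mNKX3.1+UTY_sh replicate 3 at 12.56, so the cut is a choice. Results that rest on the 3 are given also without them.

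Msmb, on the log2 scale, was 2.97, 3.24, 3.37 and 6.04 in the mNKX3.1+UTY_sh libraries, in replicate order. It was 14.86, 15.02, 14.25 and 14.85 in mNKX3.1 and 6.06, 5.63, 6.37 and 3.35 in UTY_sh. In PE it was 14.07, 14.38, 15.35 and 14.31, and in SVE 7.0, 4.40, 3.32 and 3.84. The 8 mNKX3.1 and PE libraries were all high, with about 18900 to 46400 reads each, and the 12 others were all low, so that the gap between the lowest of the 8 and the highest of the 12 was 7.07. By group mean the order was mNKX3.1 (14.75 ± 0.34), PE (14.53 ± 0.56), UTY_sh (5.35 ± 1.37), SVE (4.64 ± 1.64) and mNKX3.1+UTY_sh (3.90 ± 1.43; SD, n = 4 each). In that order, only PE and UTY_sh did not overlap; the other neighbours did. Among the 12 low libraries, 11 were above the level of the olfactory receptor genes in the same library, and none passed 0.509% of the PE mean. Several of the 11 were barely above it, such as mNKX3.1+UTY_sh replicate 2 at 3.24 against 3.23, which is no clear detection.

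Defb50 gave nearly the same picture at a higher low end. It was 3.93, 4.17, 4.56 and 7.85 in mNKX3.1+UTY_sh and 14.75, 14.89, 14.35 and 14.75 in mNKX3.1. It was 6.79, 6.41, 7.91 and 5.07 in UTY_sh, 14.23, 14.42, 15.10 and 14.41 in PE, and 8.63, 5.40, 4.76 and 4.30 in SVE. The same 8 libraries were high, with about 20300 to 42500 reads, and the gap to the highest of the 12 others was 5.60. All 12 low libraries were above the olfactory receptor level, with at most 1.62% of the PE mean. Group means followed the same order as for Msmb: mNKX3.1 14.68 ± 0.24, PE 14.54 ± 0.38, UTY_sh 6.54 ± 1.17, SVE 5.77 ± 1.96 and mNKX3.1+UTY_sh 5.13 ± 1.84 (SD, n = 4 each), and again only PE and UTY_sh did not overlap.

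Apof differed by a far smaller step between the graft types. It was 7.69, 7.61, 6.75 and 7.46 in mNKX3.1+UTY_sh and 10.21, 10.33, 9.95 and 10.37 in mNKX3.1. It was 7.02, 6.96, 7.73 and 7.47 in UTY_sh, 9.85, 10.25, 10.56 and 10.04 in PE, and 7.82, 7.69, 7.15 and 7.73 in SVE. The 8 libraries were again above the 12, but the gap was 2.03, and the 12 held 9.18 to 19.2% of the PE mean. The order of means was mNKX3.1 (10.21 ± 0.19), PE (10.17 ± 0.30), SVE (7.60 ± 0.30), mNKX3.1+UTY_sh (7.38 ± 0.43) and UTY_sh (7.30 ± 0.37; SD, n = 4 each), and only PE and SVE, of the neighbours, did not overlap. Across all genes tested, 20.5% had the 8 libraries above the 12 with no overlap and 19.4% had them below; since the 3 genes were chosen on this contrast, nothing is read from their doing so.

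**Figure D1:**
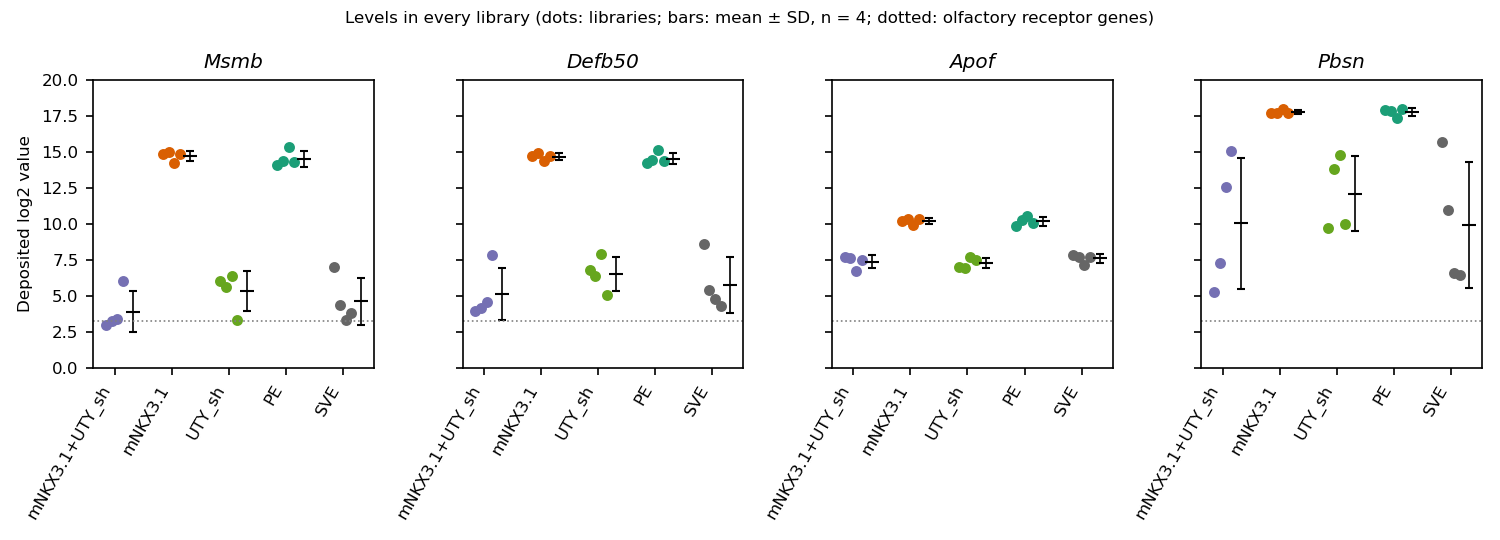
Deposited log2 value (vertical axis) of Msmb, Defb50, Apof and Pbsn in every library by group, with the mean and SD (n = 4) beside the points and a dotted line at the upper olfactory receptor level. Msmb and Defb50 lie at 14.07 or above in mNKX3.1 and PE and at 8.63 or below elsewhere, while Apof lies at 9.85 or above against 7.82 or below.

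The differences of the means, as descriptions with 95% intervals from the fit over all 20 libraries, were as follows. PE minus SVE was 9.89 (8.29 to 11.49) for Msmb, 8.77 (6.98 to 10.56) for Defb50 and 2.57 (2.13 to 3.02) for Apof, or 949, 436 and 5.95 times on the linear scale. mNKX3.1 minus SVE was 10.11 for Msmb, 8.91 for Defb50 and 2.61 for Apof. mNKX3.1+UTY_sh minus mNKX3.1 was -10.84, -9.55 and -2.83 for the same genes. These comparisons share libraries. Without SVE replicate 1, PE minus SVE was 10.68 for Msmb and 9.72 for Defb50.

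UTY_sh minus SVE was 0.71 (-0.89 to 2.31) for Msmb, 0.77 (-1.02 to 2.56) for Defb50 and -0.30 (-0.75 to 0.15) for Apof, all with intervals that include 0. mNKX3.1+UTY_sh minus SVE was -0.73 (-2.34 to 0.87), -0.64 (-2.43 to 1.14) and -0.22 (-0.67 to 0.23) for the same genes. For Msmb and Defb50, both of these comparisons rest on single libraries. With the 3 libraries rich in Pbsn left out, UTY_sh minus SVE was 1.16 (0.05 to 2.27) for Msmb and 1.27 (0.49 to 2.05) for Defb50, and these intervals no longer include 0. Without SVE replicate 1 alone it was 1.5 (0.07 to 2.93) and 1.72 (0.20 to 3.25) for the same genes. Leaving out each replicate of the compared groups in turn gave 0.27 to 1.5 for Msmb and 0.28 to 1.72 for Defb50, and of these only the values without SVE replicate 1 had an interval above 0. All these intervals describe genes chosen from these same libraries and are no test. In UTY_sh against SVE limma called 0 of 13456 genes both without the 3 libraries and without SVE replicate 1. At an unadjusted p under 0.05 there were 756 and 578 genes. mNKX3.1+UTY_sh minus SVE was -0.66 (-1.77 to 0.45) for Msmb and -0.60 (-1.38 to 0.18) for Defb50 without the 3 libraries, and 0.05 (-1.38 to 1.49) and 0.31 (-1.21 to 1.83) without SVE replicate 1 alone.

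mNKX3.1 against PE is a comparison that the choice did not make. However, Msmb and Defb50 were chosen as high in both groups, so a small difference was favoured and the test is not independent of the choice. The differences were 0.22 (-1.38 to 1.82) for Msmb, 0.14 (-1.65 to 1.93) for Defb50 and 0.04 (-0.41 to 0.49) for Apof. None passed limma's test, whose Benjamini-Hochberg adjusted p was 0.9999 for each. In this comparison 0.00% of all tested genes were called, with 65 genes at an unadjusted p under 0.05. The intervals for Msmb and Defb50 span differences of more than 1 log2 unit either way, wider than the scatter of these 8 libraries, because the fit shares the spread of the 12 low ones. All 4 mNKX3.1 values of each of the 3 genes lay within the PE range, which also held for 48.8% of all genes tested.

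Among the 12 low libraries, Defb50 was above the olfactory receptor level in all, while Msmb was close to that level (3.17 to 3.29) in several. Msmb was 2.97, 3.24 and 3.37 in mNKX3.1+UTY_sh replicates 1 to 3, 3.35 in UTY_sh replicate 4 and 3.32 in SVE replicate 3. The highest values of both genes were in libraries rich in Pbsn. In the 3 libraries rich in Pbsn, Msmb was 6.04 to 7.0, against 2.97 to 6.06 in the 9 others. Defb50 was 7.85 to 8.63 in the 3 and 3.93 to 6.79 in the 9. Defb50 in the 3 was above all 9, whereas Msmb in UTY_sh replicate 1 reached 6.06 with Pbsn at 9.69, the median of the 9. UTY_sh replicate 2 had more Pbsn than replicate 1, at 13.81, with less Msmb (5.63) and less Defb50 (6.41, against 6.79 in replicate 1). Apof did not separate these libraries, at 7.46 to 7.82 in the 3 and 6.75 to 7.73 in the 9. It was chosen for not following Pbsn, so nothing is read from this contrast. Values below about 11 on the deposited scale do not resolve into whole reads.

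**Figure D2:**
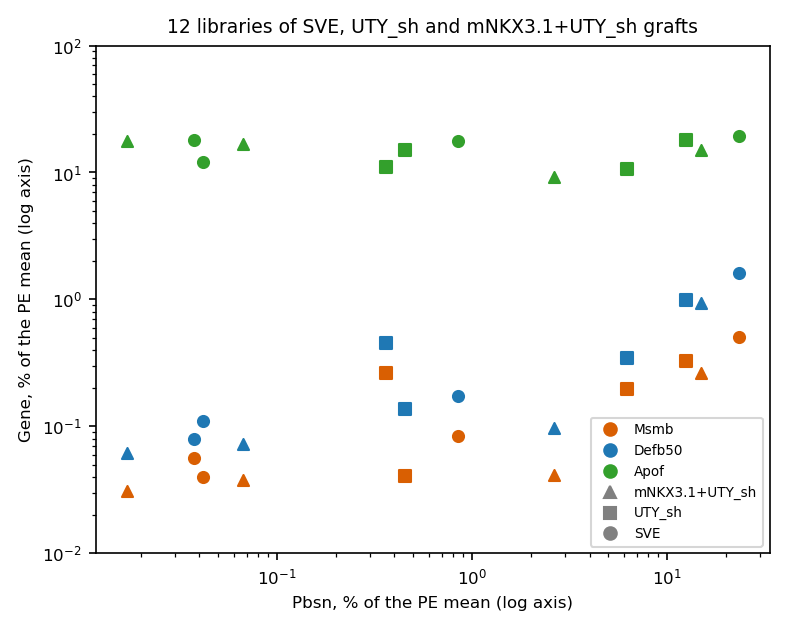
Level of Msmb, Defb50 and Apof (vertical axis) against Pbsn (horizontal axis), each as percent of its PE mean on log axes, in the 12 libraries of mNKX3.1+UTY_sh, UTY_sh and SVE grafts (marker shape). Pbsn spans 0.017 to 23.3%, and Apof, chosen for not following Pbsn, stays at 9.18 to 19.2% throughout while Msmb and Defb50 stay at or below 1.62%.

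Within the 8 high libraries the 3 genes ran together and Pbsn did not run with them, though Apof was chosen for not following Pbsn. PE replicate 3 had the highest Msmb, Defb50 and Apof and the lowest Pbsn, 0.71, 0.49 and 0.36 above the mean of the 8 and 0.41 below it. PE replicate 1 had the lowest of all 3 genes, and mNKX3.1 replicate 3 the next lowest. Part of this order was not particular to the 3 genes. D030018L15Rik and Pgap2 also stood out as high in PE replicate 3 (11.66 and 12.61) and low in mNKX3.1 replicate 3 (8.05 and 11.44). Rasl10a went the other way (3.94 and 4.55). From the highest library to the lowest, Msmb and Defb50 placed the libraries in the same order but for a swap of mNKX3.1 replicates 1 and 4, and their ranges were 1.28 and 0.87 log2 units. The summed luminal markers were lowest in PE replicate 3 (15.66) and highest in PE replicate 1 (16.05). The summed adipocyte markers were highest in PE replicate 3 (9.95), at 9.09 in PE replicate 1. They were lower still in mNKX3.1 replicate 3 (8.91), PE replicate 4 (8.84) and PE replicate 2 (8.81). Summed basal (11.38) and smooth muscle (15.68) markers were highest in PE replicate 1, where summed leukocyte markers were lowest (9.99). PE replicate 3 was also the shallowest of the 20 libraries, at 14930000 reads, though PE replicate 1 had 20510000 and mNKX3.1 replicate 3 had 15470000. The part of cell makeup and depth in this order was not tested.

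**Figure D3:**
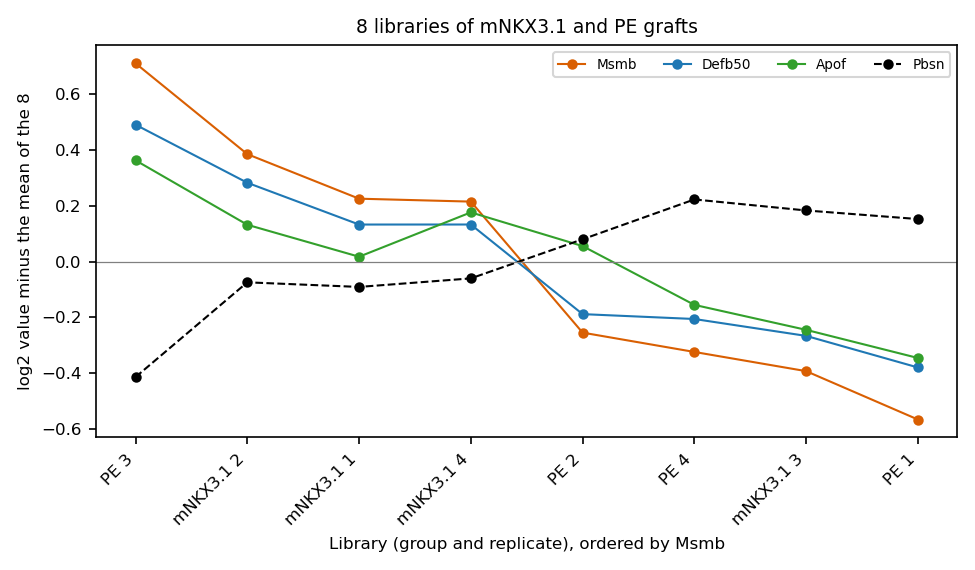
Log2 value minus the mean of the 8 mNKX3.1 and PE libraries (vertical axis) for Msmb, Defb50, Apof and Pbsn, with libraries ordered by Msmb. The 3 genes decline together from PE replicate 3 to PE replicate 1, and Pbsn is lowest, at -0.41, in PE replicate 3.

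The genes beside each of the 3 on the chromosome were compared next, in the RefSeq order of GRCm38.p6, since they were picked by position and not by level. In PE against SVE 62.1% of all tested genes were called, so a call as such says little, and the sizes are given. Beside Msmb on chromosome 14, Ncoa4, whose protein delivers ferritin to autophagy and was first described as an androgen receptor coactivator, averaged 10.04 ± 0.30 in PE and 7.54 ± 0.30 in SVE (SD, n = 4 each), a rise of 2.50 (SE 0.19; limma, adjusted p = 2.4e-09). In the GENCODE annotation a pseudogene, Gm18909, lies antisense within Msmb, and its reads cannot be told apart unless strand was used in counting. The other flanking genes of Msmb rose by less: Dph3, for diphthamide synthesis, by 0.47, Oxnad1 by 0.68 and Timm23, for mitochondrial protein import, by 0.49. In mNKX3.1 against SVE Ncoa4 rose by 2.54, and in mNKX3.1+UTY_sh against mNKX3.1 it fell by 2.70 (limma, adjusted p = 7.9e-10), where 62.3% and 63.8% of all genes were called in either direction.

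Defb50 on chromosome 8 sits in a cluster of defensin genes. Defb1, the epithelial beta-defensin next to it, averaged 12.26 ± 0.18 in PE and 8.39 ± 0.64 in SVE (SD, n = 4 each), a rise of 3.86 (SE 0.24; limma, adjusted p = 1.5e-10). Defb10 averaged 5.03 ± 0.36 in PE and 2.10 ± 0.16 in SVE, which is below the olfactory receptor level, so its rise of 2.92 is on a compressed scale. Defb2, between Defb50 and Defb10, did not pass the filter on low values, at 3.49 to 4.52 in the 8 mNKX3.1 and PE libraries and 1.76 to 3.48 in the 12 others. Defa24, the next gene beyond Defb1, also did not pass it.

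Apof on chromosome 10 is followed by Stat2, an interferon signalling factor, with an overlap in the RefSeq annotation. Stat2 averaged 10.51 ± 0.19 in PE and 9.91 ± 0.17 in SVE (SD, n = 4 each), a rise of 0.60 (SE 0.10; limma, adjusted p = 5.9e-05). Whether the authors' counting used strand, and how it split the shared stretch, is unknown here, so the Apof and Stat2 values are uncertain to that extent. Timeless, a replication fork gene on the other side, fell by 0.61 in PE against SVE. Apon and Il23a did not pass the filter.

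**Figure D4:**
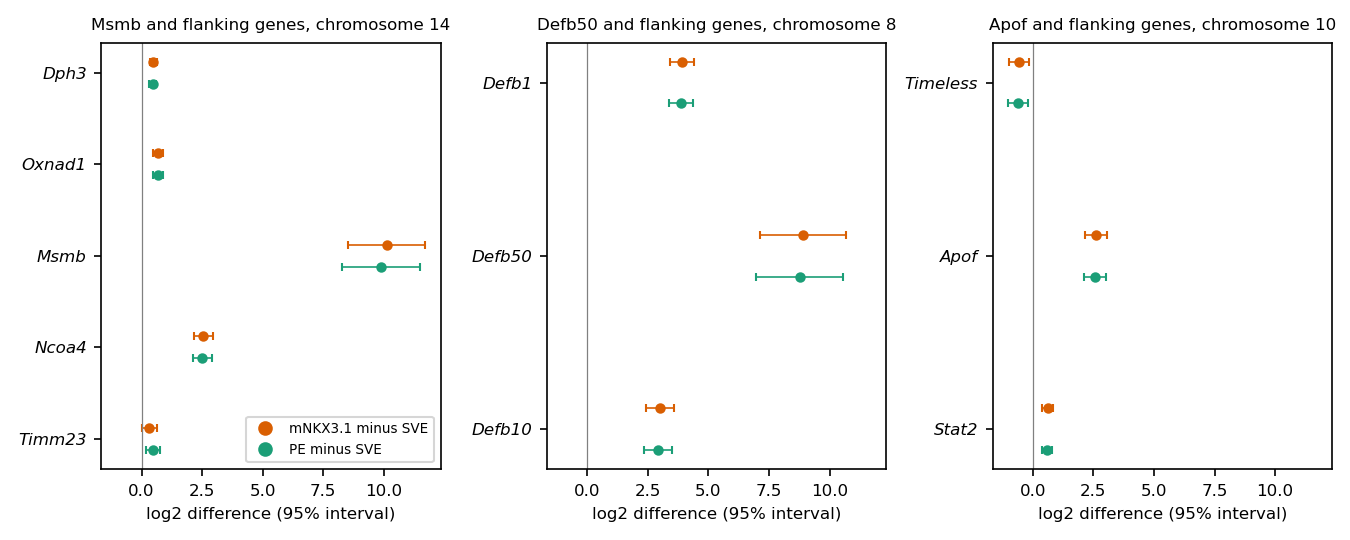
Log2 difference with its 95% interval (horizontal axis) for mNKX3.1 minus SVE and PE minus SVE, for each of the 3 genes and its tested flanking genes in chromosome order. Ncoa4 and Defb1, beside Msmb and Defb50, differ by 2.50 and 3.86 in PE minus SVE, and Stat2, beside Apof, by 0.60.

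Likeness was measured as the root mean square difference between 2 genes' log2 profiles, each centred on its own mean, over the 13456 genes kept, and is a description. Over all 20 libraries the gene nearest to Msmb was Defb50 (0.68), and the nearest to Defb50 was Msmb. After it came Wfdc3, a whey acidic protein domain gene (0.96 from Msmb and 1.02 from Defb50), 5430419D17Rik (1.32 and 1.45) and Pigr, which carries immunoglobulin A across epithelium (1.90 and 1.37). D030018L15Rik (1.90) was the fifth for Msmb and Mmp7, matrilysin (1.53), the fifth for Defb50. Pbsn was 27th for Msmb and 32nd for Defb50. Wfdc3 averaged 11.89 ± 0.55 in mNKX3.1 and 11.56 ± 0.87 in PE (SD, n = 4 each), and its highest value was 3.34 in mNKX3.1+UTY_sh, 4.22 in UTY_sh and 3.26 in SVE.

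The genes nearest to Apof were others: Ncoa4 (0.25), Creb3l4, a membrane-bound transcription factor (0.32), Pgap2, for GPI anchors (0.35), Defb10 and Gipc2 (0.38 each). So Ncoa4, the gene next to Msmb, and Defb10, near Defb50, had profiles far closer to that of Apof than Msmb (3.72) or Defb50 (3.19) did. Pbsn was 13391st of the genes for Apof, and Msmb and Defb50 were 13405th and 13343rd, among the farthest. The measure does not scale the profiles, so a gene with a much larger step ranks far even where its direction is the same. Apof was also chosen for not following Pbsn, so nothing is read from these ranks.

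Over the 12 low libraries alone, Msmb and Defb50 were again each other's nearest gene (0.42). For Msmb the next were Chrm1, a muscarinic receptor (0.72), and Wdr72 (0.73), and for Defb50 Pigr (0.50) and Slc45a3, the prostein gene (0.63). Apof was nearest to Ica1 (0.15), Ifi47 and Rasl10a (0.16 each), genes that, like Apof, vary little among these libraries. None of these was higher in the 8 libraries: PE minus SVE was -0.65 for Ica1, -0.31 for Ifi47 and -1.49 for Rasl10a.

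Among their families, the 3 genes were set beside lists chosen by gene name or known role, with earlier results of these data known. Of 43 other beta-defensin genes in the table, 40 did not pass the filter on low values. Of the 3 that did, Defb1 and Defb10 rose in PE against SVE and Defb42 did not pass the test (0.67, adjusted p = 0.20 by limma). In mNKX3.1+UTY_sh against mNKX3.1 all 3 fell, beside 32.4% of all genes, though the call of Defb42 (-1.12) was lost under quantile normalisation. Defb10 and Defb42 reached at most 2.99 and 4.91 in the 12 low libraries. They therefore passed the filter only through mNKX3.1 and PE libraries, which favoured these calls, and nothing is read from the counts. Of 7 tested genes of other antimicrobial proteins, 2 rose in PE against SVE, Pigr by 6.09 and the lysozyme gene Lyz1 by 1.41, and 3 fell, Wfdc15b by 5.54, the protease inhibitor gene Slpi by 3.08 and the siderophore-binding lipocalin gene Lcn2 by 1.20. The background was 31.8% of all tested genes higher and 30.4% lower. The median of the 7 was 0.61, against 0.02 over all genes. Leukocyte markers were higher too where they passed the test: of 3 tested of 5, Cd68 rose by 0.90 in PE against SVE, and Ptprc (0.53) and Lyz2 (1.09), a close copy of Lyz1, did not pass. Their summed level was 9.99 to 12.77 in PE, and the 4 SVE libraries lay within that range, the highest of them at 10.56. Their part in the Lyz1 and Pigr differences was not tested.

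Of 12 genes related to Msmb or to the cysteine-rich secretory proteins that bind MSMB in human seminal plasma, 5 were tested, none rose and 2 fell in PE against SVE, Glipr2 by 0.56 and Crispld2 by 0.44 (median of the 5 -0.44). Of all tested genes 31.8% were called higher and 30.4% lower, so so few calls say little. Msmp, the microseminoprotein relative, and Crisp1 to Crisp4 did not pass the filter.

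Of 23 apolipoprotein genes other than Apof, 6 were tested in PE against SVE. Apoc1 rose by 1.43 (limma, adjusted p = 2.1e-06), Apod by 1.02 and Apool by 0.31, the last of these lost when libraries were shifted to the same median. Apol6 fell by 6.75 (adjusted p = 4.1e-14), averaging 6.18 ± 0.53 in PE and 12.94 ± 0.26 in SVE (SD, n = 4 each), and Clu, clusterin, fell by 0.78. Apoe, an abundant carrier of cholesterol, averaged 12.07 ± 0.56 in PE and 12.30 ± 0.27 in SVE and did not pass the test. The median of the 6 was 0.04, against 0.02 over all genes. In mNKX3.1 against SVE 3 of the 6 rose and 2 fell, beside 31.7% and 30.6% of all genes. In mNKX3.1+UTY_sh against mNKX3.1 3 of the 6 fell and 2 rose, beside 32.4% and 31.4% of all genes.

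Among 18 tested genes of lipoprotein handling, 5 rose and 5 fell in PE against SVE, near the 31.8% and 30.4% of all tested genes, with a median of 0.02; the call of Lipc, a rise of 1.55, was lost under quantile normalisation. Vldlr, a lipoprotein receptor, fell by 1.67, and Mttp, which loads lipid onto nascent lipoproteins, fell by 0.68. Soat1, which esterifies cholesterol, rose by 1.41 and Lpl, lipoprotein lipase, by 1.97. The summed adipocyte markers, 4 of 5 tested and all 4 higher, ran at 8.81 to 9.95 in PE and 5.17 to 8.98 in SVE; their part in the Lpl difference was not tested. Of 8 hepatocyte markers, set beside Apof since liver is its known source, none passed the filter, and their summed level was 5.39 to 5.63 in PE and 5.20 to 5.76 in SVE. Luminal markers summed to 15.66 to 16.05 in PE and 14.66 to 15.14 in SVE, and 5 of 6 rose, of which Krt8 was lost under both other scalings and Krt18 under quantile normalisation. Smooth muscle markers summed to 15.25 to 15.68 in PE and 16.21 to 16.90 in SVE, and all 6 fell. The part of cell makeup in the differences of the 3 genes was not tested.

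In UTY_sh against SVE and in mNKX3.1+UTY_sh against SVE no gene of these lists was called, nor any of the 13456 (0.00% by limma in each, with 316 and 557 genes at an unadjusted p under 0.05; no other tool was run).

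**Figure D5:**
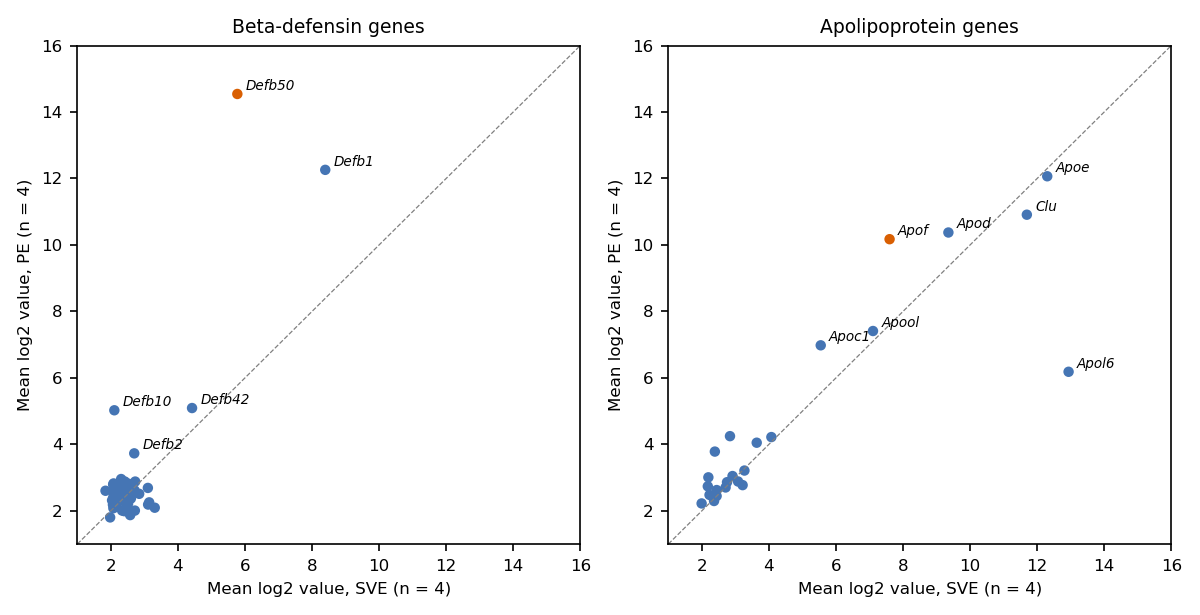
Mean log2 value in PE (vertical axis, n = 4) against SVE (horizontal axis, n = 4) for the beta-defensin genes and the apolipoprotein genes, with Defb50 and Apof in orange and a dashed line of equal level. Defb50 and Defb1 lie far above the line while most beta-defensin genes lie at the level of silent genes, and Apol6 lies far below the line.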

How the data were processed

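TruSeq libraries of poly-A RNA were sequenced on an Illumina HiSeq, per the labels' protocols. Tools named in the submitters' processing notes are DESeq, Cufflinks (2.0.2), TopHat2 (2.0.4) and bcl2fastq (1.8.4), and the build is mm9. The sources used here do not give the counter, the annotation, the order of steps or any separation of rat reads. The authors deposited log2 values, 1 per gene and library, from 0.0193 to 22.4. Between 11 and 13 the antilogs fell on whole multiples of a unit per library, taken as 1 read (within 0.1, with a constant offset per library) for 100% of values, which gave the depth; at 10 to 11 this held for 37.2 to 41.0%, so no count test was run.

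Genes with at least 4 libraries at 5 or more were kept (13456, all 3 members among them). 1 model with a mean per group and a variance trend was fitted to all libraries (limma 3.58.1, R 4.3.3), with Benjamini-Hochberg adjustment within each comparison and a call at an adjusted p below 0.05. The fit was tested on simulated data. Tables and figures used Python 3.11.15, numpy 2.4.6 and pandas 2.3.3. Replicate numbers follow accession order and pair nothing. The members, gene lists, likeness measure and libraries called rich in Pbsn were chosen with earlier results of these data known. Named genes are the 3 members, Pbsn, the 2 measured genes on each side by RefSeq order, the 5 nearest profiles over 20 libraries and 3 over 12, and up to 4 members per list by p in PE against SVE, plus some chosen after their values were seen (Lyz1, Apool, Apoe, Lipc, Krt8 and Krt18). Alternatives tried were other filters, 2 other scalings, only the groups compared, no variance trend, leaving out each replicate, leaving out the 3 libraries rich in Pbsn, and the mean of antilogs.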

Additional observations from a re-analysis of the deposited data

Results flagged for a closer look

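Of 150 groups of 4 libraries, over 30 named genes, 20 held 1 library far from its 3 fellows by Dixon's criterion, which chance flags in about 1 of 20 groups; the values are deposited log2 values. In mNKX3.1+UTY_sh, replicate 4 was high for Msmb (6.04) and for Defb50 (7.85), and it is 1 of the 3 libraries rich in Pbsn. In mNKX3.1, replicate 3 was high for Pbsn (17.96) and Rasl10a (4.55) and low for 5430419D17Rik (10.71), D030018L15Rik (8.05), Pgap2 (11.44) and Pigr (10.35). In UTY_sh, replicate 4 was low for D030018L15Rik (1.49), Defb10 (1.82) and Oxnad1 (7.78). In PE, replicate 3 was high for D030018L15Rik (11.66) and Pgap2 (12.61) and low for Rasl10a (3.94), and replicate 1 was high for Apon (3.15). In SVE, replicate 1, also rich in Pbsn, was high for Chrm1 (7.22), Pgap2 (10.02) and Slc45a3 (9.98), replicate 4 was low for Defb2 (2.35) and replicate 3 was low for Ifi47 (5.45).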

How the results depend on the processing

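Of 378 values under alternatives, 372 were classed as the same and 6 reversed, all of differences whose interval includes 0. For numbers of genes called, the same means a similar size, or still none. For differences it means the same sign and a shift smaller than the spread within groups or, where tested, the same side of the threshold. The UTY_sh minus SVE differences of Msmb and Defb50 whose intervals came to exclude 0 are classed as the same. Defb50 in UTY_sh minus SVE was -0.048 with the log2 of mean antilogs, an alternative added after seeing the data. Without SVE replicate 1, mNKX3.1+UTY_sh minus SVE was 0.053 for Msmb (leaving out each replicate gave -1.45 to 0.053) and 0.31 for Defb50 (-1.55 to 0.31). Apof in mNKX3.1 minus PE was -0.067 without PE replicate 1, -0.0040 without PE replicate 4 and -0.011 without mNKX3.1 replicate 4 (range -0.067 to 0.17); the causes were not tested. No paired analysis was possible because the labels give no replicate numbers and the numbers used here follow accession order.

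The number of genes called in PE against SVE was 6971 with only these groups in the fit, 7506 with the stricter filter and 8721 with none, beside 8362. Low values limit what can be said of Msmb and Defb50 in the 12 low libraries: they are compressed towards a floor, which understates the differences, and they do not resolve into whole reads. Groups of 4 with a shared spread leave wide intervals for mNKX3.1 against PE.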
